A study of Rattus norvegicus with 6 samples.

Results

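The 8 arms examined here are the mature products of 4 miRNA genes, miR-337, miR-127, miR-434 and miR-136, which lie within about 10.2 kb of each other in the imprinted Dlk1-Dio3 region of rat chromosome 6. They were chosen by name and locus, as every rat miRNA on the array that is an arm of 1 of these 4 genes, and make up 8 of the 719 rat miRNAs measured. The samples were rat primary skeletal muscle cells (RSkMC), purchased cells isolated from the limb muscle of newborn animals and frozen at the second passage. They were sampled on day 11 of differentiation in medium with 2% horse serum. One group had received interleukin-8 (IL-8), a chemokine best known for attracting neutrophils, at 1 ng/ml (IL-8, n = 3 samples), and the other was untreated (control, n = 3 samples). The labels name no genotype or strain. In the labels the growth protocol speaks of IL-8 in every sample, but 3 samples are untreated by their titles and agent entries, and the titles set the groups here.

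In mammals the Dlk1-Dio3 region expresses protein genes (Dlk1, Rtl1, Dio3) from the paternal chromosome and a chain of noncoding transcripts from the maternal one. Those transcripts begin with Meg3 and carry one of the largest known sets of miRNAs. In the mouse, miR-127, miR-434 and miR-136 are cut from a transcript antisense to Rtl1, a retrotransposon-derived gene, and can guide cleavage of Rtl1 RNA. In mouse muscle, miRNAs of this region are abundant in satellite cells and myoblasts, and the transcription factor Mef2a was described to activate the region. RefSeq (GRCr8) places the genes in the order Meg3, miR-337, Rtl1 and Dio3, with miR-127, miR-434 and miR-136 inside the span of Rtl1 and miR-337 before it. Exon and intron structure was not examined.

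On rn4, the build given in the array files, the probes of miR-337 lie on chromosome 6 at 134176784 to 134176799 (5p) and 134176813 to 134176832 (3p). Those of miR-127 lie at 134184341 to 134184356 (5p) and 134184373 to 134184389 (3p). Those of miR-434 lie at 134186276 to 134186293 (5p) and 134186314 to 134186330 (3p), and those of miR-136 at 134186992 to 134187013 (5p) and 134187027 to 134187046 (3p). The probes of miR-136-3p thus start 10.2 kb from those of miR-337-3p, while those of miR-379-5p, from the first gene of the downstream cluster, start 211 kb away.

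Mature sequences from RefSeq (GRCr8, plus strand) were matched for 6 of the 8 arms. They are shown 5′ to 3′ with the seed, bases 2 to 8, in capitals, because the seed decides which messenger RNAs a miRNA can pair with.
rno-miR-337-5p: cGGCGUCAugcaggaguugau
rno-miR-337-3p: uUCAGCUCcuauaugaugccuuu
rno-miR-127-3p: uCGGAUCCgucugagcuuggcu
rno-miR-434-5p: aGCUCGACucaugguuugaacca
rno-miR-434-3p: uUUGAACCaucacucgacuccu
rno-miR-136-3p: cAUCAUCGucucaaaugagucu
The 6 arms had 6 different seeds, and no other of the 693 rat mature miRNAs in that set shared any of them. These 6 arms share a locus and no seed.

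Each arm was measured by 2 probes, the shorter lying within the longer, so the 2 probes of an arm are not independent. The longer probes of the 6 arms that could be tested, which decide what each value measures, read as follows 5′ to 3′, in lower case throughout.
rno-miR-337-3p: aaaggcatcatataggagctg
rno-miR-127-5p: aatcagagccctctgag
rno-miR-127-3p: agccaagctcagacggat
rno-miR-434-3p: aggagtcgagtgatggtt
rno-miR-136-5p: tccatcatcaaaacaaatggagt
rno-miR-136-3p: agactcatttgagacgatgat
The longer probe was the exact complement of bases 5 to 22 in miR-127-3p and miR-434-3p, of bases 3 to 23 in miR-337-3p and of bases 2 to 22 in miR-136-3p. For none of the 16 probes did the complement occur whole in another rat mature miRNA of the set.

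Total RNA was labelled with Cy3 and hybridised to 1-colour Agilent miRNA arrays, 1 per sample, and the values are fluorescence intensities. Detected miRNAs numbered 180, 169 and 168 on IL-8 arrays, against 154, 156 and 164 on control arrays. Of the 14 striated muscle miRNAs fixed as cell type markers (miR-206, miR-499, miR-1 and their relatives), 0 were well above background on any array, so the miRNAs that define the labelled muscle identity were not detected in these samples. Their summed signal was 41.1 to 67.7 on IL-8 arrays and 25.1 to 41.2 on control arrays. Of 10 fibroblast and smooth muscle markers, 8 were detected on all 6 arrays. Their summed signal was 57390 to 58643 on IL-8 arrays and 43432 to 58009 on control arrays. None of 8 blood, 2 endothelial, 10 epithelial and 4 neural markers was detected on any array. Since these are bulk samples, fewer cells of a type and less RNA per cell cannot be told apart. The IL-8 arrays shared one slide and the control arrays shared a second, so an effect of the slide and one of IL-8 cannot be told apart either. No label says that the samples were separate cultures. The p-values therefore measure the spread between these 6 samples alone, which may be technical, and precision is limited by there being 3 arrays per group.

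The first question was which arms could be measured. A probe counted as detected on an array when the scanner software called more than 50% of its spots well above background. By this measure 5 of the 8 arms were detected on all 6 arrays: miR-337-3p, miR-127-3p, miR-434-3p, miR-136-5p and miR-136-3p. From miR-337, miR-127 and miR-434 the 3p arm was detected throughout and the 5p arm was not, while both arms of miR-136 were. miR-127-5p was detected on all 3 IL-8 arrays but on only 1 control array, miR-434-5p on 1 IL-8 array and 0 control arrays, and miR-337-5p on none. A difference in brightness between probes is no measure of relative amount, so these counts do not say how much of one arm there was relative to the other.

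**Figure D1:**
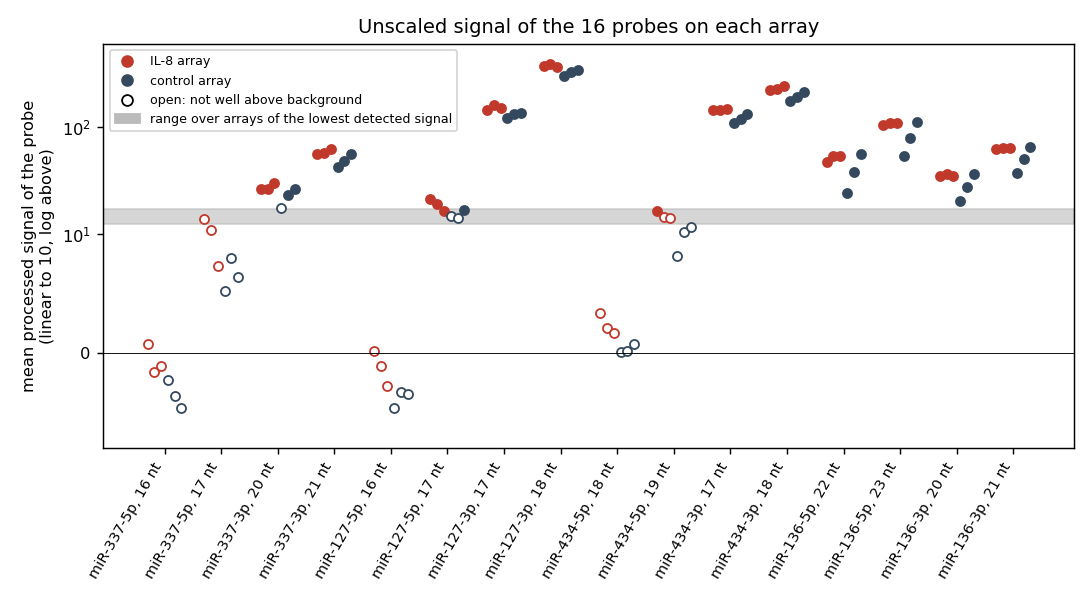
Unscaled processed signal (y axis, arbitrary units, linear up to 10 and logarithmic above) of the 16 probes of the 8 arms (x axis, with probe length in nucleotides) on each IL-8 array (red) and control array (dark). Filled points were well above background, and the grey band spans the lowest detected signal of each array, 12.3 to 17.1. All points of miR-337-5p are open, and all points of miR-127-3p and miR-434-3p lie far above the band.

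Signals of the 2 arms that could not be tested follow. The longer probe of miR-434-5p had unscaled signals of 16.2, 14.6 and 14.0 on IL-8 arrays and 8.14, 10.4 and 11.7 on control arrays. The longer probe of miR-337-5p had 13.8, 11.0 and 7.33 on IL-8 arrays and 5.20, 7.94 and 6.39 on control arrays, where the lowest detected signals were 17.1, 15.98 and 16.3. The shorter probe of miR-337-5p ran from -1.60 to 0.706 on IL-8 arrays and from -4.62 to -2.28 on control arrays, and that of miR-434-5p from 1.63 to 3.32 on IL-8 arrays and from 0.0216 to 0.713 on control arrays. For the longer probes, signals of miR-434-5p were higher on every IL-8 array and those of miR-337-5p overlapped. No fold is given for either, as neither group was measured throughout, and these 2 arms did not enter the test.

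Unscaled signals were also higher on IL-8 arrays for many detected probes. The longer probe of miR-127-3p gave 376, 388 and 362 on IL-8 arrays, against 303, 327 and 343 on control arrays. That of miR-434-3p gave 223, 229 and 240 on IL-8 arrays, against 175, 192 and 213 on control arrays. Of the 11 probes in use for these arms, 6 had unscaled signals that did not overlap between groups, all of them higher with IL-8. Over all 300 probes in use the share was 60.7% (59.3% as higher with IL-8), near that of these arms. The 75th percentile over all detected probes, used for scaling, was 553 ± 14.9 on IL-8 arrays and 471 ± 28.6 on control arrays (SD, n = 3 each). The levels below are therefore log2 signals relative to each array's own 75th percentile over the 264 probes detected on all 6 arrays, and a change is a change relative to other miRNAs of the array.

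The main question was whether IL-8 changed the amount of these arms. With arrays scaled in this way, none of the 6 testable arms passed the test, and the intervals of the brightest, miR-127-3p and miR-434-3p, ran from 0.905-fold to 1.13-fold of control. By limma with Benjamini-Hochberg adjustment over 167 tested miRNAs, 0 of the 6 passed at adjusted p under 0.05, where 7.19% of all tested miRNAs did (3.59% as higher with IL-8). At unadjusted p under 0.05 by limma it was also 0 of 6, against 25.1% of all tested. IL-8 and control values were fully separated in 0 of the 6, against 29.9% of all tested. The smallest adjusted p of the 6 was 0.575, for miR-136-5p. The log2 change was above 0 for 4 of the 5 arms detected on all arrays, for miR-127-5p, which entered the test through its IL-8 arrays, and for 57.5% of all tested miRNAs. With miR-127-5p included, the number above 0 was 5 of 6 as reported, 6 of 6 under quantile normalization, spike-in scaling or no scaling, 4 of 6 with median scaling, 2 of 6 with the percentile taken over all probes and 1 of 6 with the normexp background. The median log2 change over the 5 arms detected throughout was 0.064, or 0.032 when only probes detected on all 6 arrays were used, and 0.019 over all 167 miRNAs.

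miR-127-3p, which in mouse muscle cells was described to target the sphingosine receptor S1pr3, had log2 levels of -1.28, -1.13 and -1.21 on IL-8 arrays and -1.20, -1.18 and -1.20 on control arrays. The control values lay inside the range of the IL-8 values. IL-8 over control was 0.993-fold with a 95% confidence interval of 0.905 to 1.09 (limma adjusted p = 0.947). The sign of this near-zero change was positive with quantile normalization, without scaling and with spike-in scaling. Its 2 probes had log2 changes of -0.00026 (shorter) and -0.020 (longer). Across the 167 tested miRNAs its standard deviation over control arrays, 0.011, was the second smallest (rank 166 from the top). Over IL-8 arrays it was 0.072 (rank 58), above the median of 0.057.

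miR-434-3p, described in aging mouse muscle as a repressor of the translation factor gene Eif5a, had log2 levels of -1.66, -1.60 and -1.53 on IL-8 arrays and -1.67, -1.65 and -1.56 on control arrays. Each group spanned nearly the same range. The fold was 1.02 (95% confidence interval 0.925 to 1.13, limma adjusted p = 0.814). The change turned to -0.065 with the percentile over all probes, -0.00029 with median scaling and -0.012 with the normexp background.

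miR-337-3p, from the gene that lies outside Rtl1, had log2 levels of -3.88, -3.82 and -3.65 on IL-8 arrays and -4.02, -3.83 and -3.70 on control arrays. The groups overlapped, and the fold was 1.05 (0.894 to 1.22, limma adjusted p = 0.779). Its shorter probe was detected on 2 of the 3 control arrays, so it entered through its IL-8 arrays, which favoured a positive change. The 2 probes gave log2 changes of 0.10 (shorter) and 0.028 (longer), and the arm as reported 0.064. Leaving out control replicate 1 or IL-8 replicate 3 took the change to -0.0031 or 0.00087.

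miR-127-5p entered the test through its IL-8 arrays, so a positive change was favoured by the filter. Its longer probe, the one in use, had log2 levels of -4.75, -4.86 and -5.02 on IL-8 arrays and -4.89, -5.09 and -4.90 on control arrays. The groups overlapped, with a fold of 1.06 (0.915 to 1.22, limma adjusted p = 0.656). This arm was within 1 log2 unit of the floor of -5.45.

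Both arms of miR-136 stood apart from the others in how much the control arrays differed among themselves. miR-136-5p had log2 levels of -3.02, -2.84 and -2.81 on IL-8 arrays and -3.62, -3.10 and -2.65 on control arrays. The control values reached both below and above all IL-8 values. The means were -2.89 ± 0.11 with IL-8 and -3.12 ± 0.48 in control (SD, n = 3 each). The fold was 1.18, with a 95% confidence interval of 0.829 to 1.67 (limma adjusted p = 0.575), the widest interval of the 6 arms. miR-136-3p had log2 levels of -3.60, -3.52 and -3.51 on IL-8 arrays and -3.99, -3.67 and -3.35 on control arrays, again with control values on both sides. Its fold was 1.09 (0.863 to 1.38, limma adjusted p = 0.663). Among 167 tested miRNAs, miR-136-5p had the largest standard deviation over control arrays (0.48) and miR-136-3p the eighth largest (0.32, rank 8), where the median was 0.086. Over IL-8 arrays they ranked 29 and 88.

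The control arrays replicate 1 and replicate 3 set the values of these 2 arms. Without control replicate 3 the log2 change of miR-136-5p was 0.48 (limma adjusted p = 0.0227) and that of miR-136-3p was 0.29 (limma adjusted p = 0.0476), both past the threshold. Without control replicate 1 the values were 0.0023 and -0.017 (limma adjusted p = 0.992 and 0.938). Of the 21 alternatives tried, leaving out control replicate 3 was the only one under which any of the 6 arms passed. The count over all miRNAs also moved under that leave-out, to 33 against 12 with all arrays, and control replicate 1 had the lowest 75th percentile (440, with 475 and 497 on the other control arrays).

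**Figure D2:**
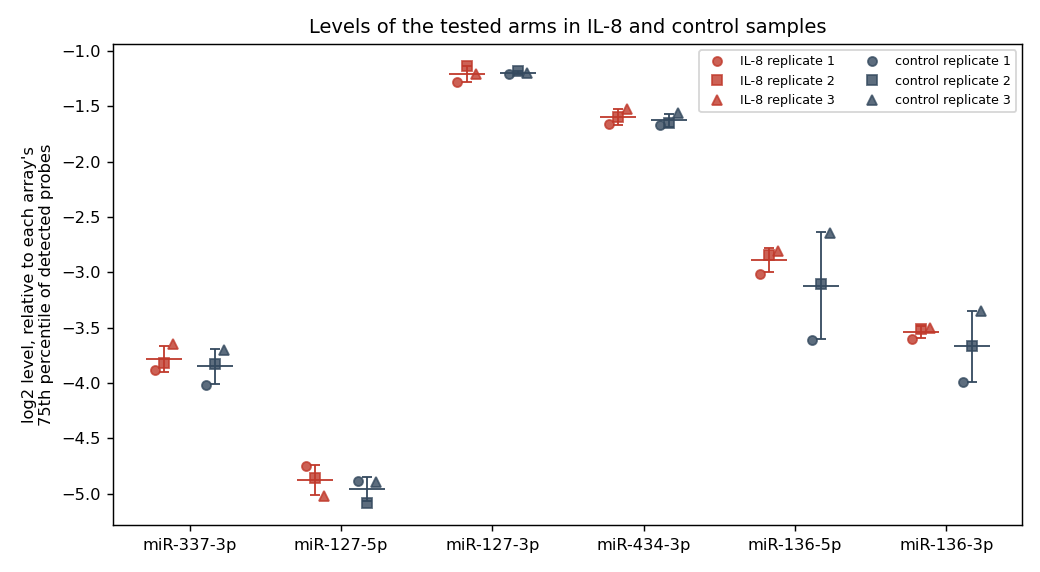
Log2 level (y axis, relative to the 75th percentile of detected probes of the same array) of the 6 tested arms in IL-8 (red, left of each pair) and control (dark, right) samples. Points are samples with the shape giving the replicate number, horizontal lines are means and bars are SD (n = 3). IL-8 and control points overlap for every arm, and the control points of miR-136-5p span -3.62 to -2.65.

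The unscaled signals of miR-136 show the same differences between control arrays. The longer miR-136-5p probe read 105, 110 and 110 on IL-8 arrays and 53.6, 79.8 and 113 on control arrays. Both probes of both arms gave the same order of the control arrays. For miR-136-5p the coefficient of variation between the spots of one probe on one array ran from 4.07% to 16.4%, and for miR-136-3p from 3.05% to 16.2%. On the IL-8 arrays the longer miR-136-5p probe differed between arrays by less than its spots did within an array.

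Of the 5 arms detected on all arrays, 4 moved together over the samples to different extents, and miR-127-3p followed them little. It was nearly flat over the control arrays only (SD 0.011). Over the IL-8 arrays its SD was 0.072, where that of miR-434-3p was 0.070. The mean absolute difference between the centred log2 profiles of 2 arms over the 6 arrays was smallest between miR-127-3p and miR-434-3p (0.057) and between miR-337-3p and miR-434-3p (0.058). It was 0.091 between both arms of miR-136 and largest between miR-127-3p and miR-136-5p (0.24). All of these are differences of log2 levels after each arm's own mean was taken off. miR-136-5p and miR-136-3p come from one hairpin, and Pearson's r between them was 0.996 over the 6 arrays. It was 0.910 between miR-337-3p and miR-434-3p, 0.887 between miR-337-3p and miR-136-5p and 0.868 between miR-337-3p and miR-136-3p. It was 0.762 between miR-434-3p and miR-136-5p and 0.734 between miR-434-3p and miR-136-3p. miR-127-3p correlated with the other 4 arms at 0.0947 to 0.275. These are descriptions over 6 arrays that share scaling, and no p is given. Such movement was not particular to these arms. Of all 167 tested miRNAs, 124 had a higher level on control replicate 3 than on control replicate 1, with a median log2 difference of 0.12. Some miRNAs from outside the region lay nearer to the mean profile of the 5 arms than any of the arms did, as given below.

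The probes of the arms also differed in composition. The mean share of G and C in the probes in use was 35.6% for miR-136-5p, 39.0% for miR-136-3p and 41.4% for miR-337-3p. It was 51.5% for miR-434-3p, 52.9% for miR-127-5p and 57.2% for miR-127-3p, where the median of all tested miRNAs was 48.7%. The log2 level on control replicate 3 minus that on control replicate 1, a pair of arrays chosen after the values had been seen, followed nearly the same order. It was 0.97 for miR-136-5p, 0.64 for miR-136-3p, 0.32 for miR-337-3p, 0.11 for miR-434-3p, -0.0060 for miR-127-5p and 0.0011 for miR-127-3p. Across all 167 tested miRNAs, which are not independent replicates and share both arrays, this difference correlated with the G and C share at Pearson's r = -0.618 and Spearman's rho = -0.654. With probe length r was 0.519. The part of probe composition in the spread of miR-136 was not tested.

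**Figure D3:**
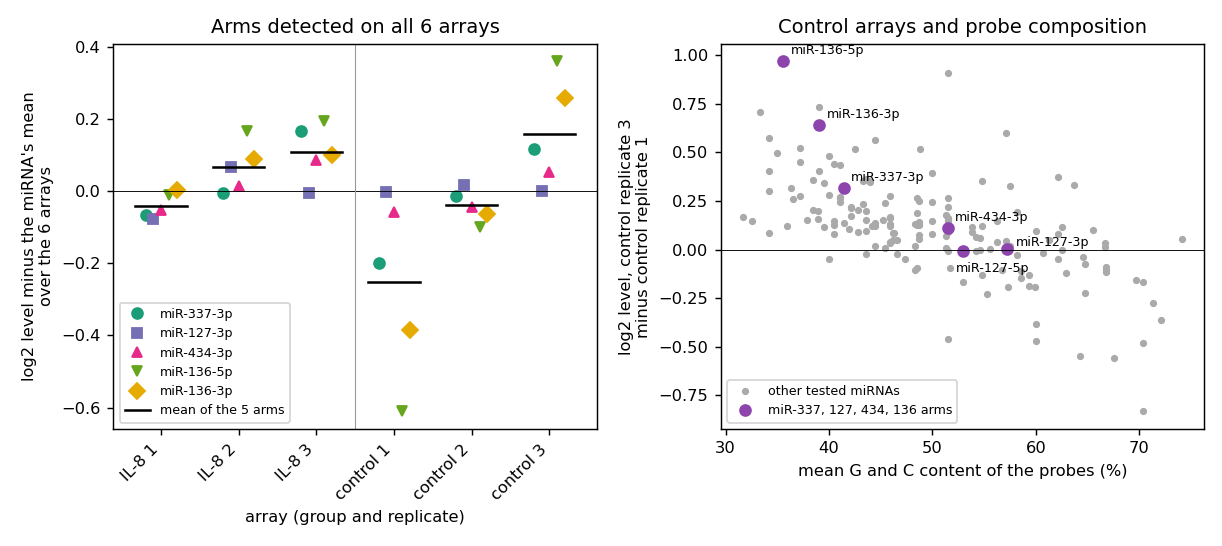
Left, log2 level minus the arm's mean over the 6 arrays (y axis) on each IL-8 and control array (x axis) for the 5 arms detected on all arrays, with the mean of the 5 as a black line. Right, log2 level on control replicate 3 minus control replicate 1 (y axis) against the mean G and C content of a miRNA's probes (x axis, percent) for the 167 tested miRNAs. The miR-136 arms are lowest on control replicate 1 and, at 0.97 and 0.64, lie high on the left of the right panel, while miR-127-3p lies at 0.0011.

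Outside these arms, the tested miRNAs whose centred profile was most like the mean of the 5 were miR-101b-3p (mean absolute difference 0.029 on the log2 scale over 6 arrays), miR-27a-3p (0.033), miR-376b-5p (0.039), miR-21-5p (0.041) and miR-29c-3p (0.043). The median over all other tested miRNAs was 0.106. The mean describes the arms unequally: miR-337-3p differed from it by 0.046, miR-136-3p by 0.056, miR-434-3p by 0.064, miR-127-3p by 0.103 and miR-136-5p by 0.139, so it is not a profile that all 5 share. Of the 5 miRNAs named as most like the mean, only miR-376b-5p comes from the Dlk1-Dio3 region. Their log2 changes with IL-8 were 0.097, 0.089, 0.048, 0.0069 and 0.082 in the same order, with limma adjusted p from 0.620 to 0.968. None of them passed. The 5 had negative values with the percentile over all probes, and miR-101b-3p and miR-376b-5p also with the normexp background, miR-21-5p with median scaling and miR-376b-5p with quantile normalization.

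The arms were set beside the rest of the imprinted region. Of 15 arms of the other upstream genes (miR-770, miR-673, miR-493, miR-540, miR-665, miR-431, miR-433, miR-341 and miR-370), 3 were detected on all 6 arrays and tested, and 0 passed by limma, adjusted or unadjusted. miR-431, which in mouse myogenic cells was described to target Pax7, had log2 levels of -3.71, -3.65 and -3.78 on IL-8 arrays and -3.74, -3.67 and -3.71 on control arrays. Its fold was 0.996 (0.906 to 1.09, limma adjusted p = 0.968). miR-341 had a fold of 1.03 (0.917 to 1.16, limma adjusted p = 0.793). miR-770-3p, from inside Meg3, had a fold of 0.962 (0.774 to 1.19, limma adjusted p = 0.850). The signs of these 3 near-zero changes depended on the scaling: miR-431 and miR-770-3p were positive without scaling and with spike-in scaling, and miR-341 was negative with the percentile over all probes and with the normexp background. Their median log2 change was -0.0058.

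The downstream cluster, from miR-379 to miR-410, had 67 arms on the array and 19 tested. One arm (1 of 19) passed by limma after adjustment and 9 before it, all higher with IL-8, and IL-8 and control values were separate in 8. Over all 167 tested miRNAs, 3.59% passed by limma as higher with IL-8 after adjustment and 15% before it. Values were separate as higher with IL-8 in 16.2%, and the log2 change was above 0 in 57.5%. Of the 19, 15 were detected on all 6 arrays and the other 4 (miR-376b-5p, miR-376c-3p, miR-380-3p and miR-381-3p) entered through their IL-8 arrays, which favours a positive change. Among the 15, 12 had a log2 change above 0, 1 passed after adjustment and 7 before it, and 7 did not overlap. Their median log2 change was 0.15, or 0.13 with only probes detected on all 6 arrays. Over all 19 arms, 16 log2 changes were above 0 as reported. It was 12 with the percentile over all probes and 3 with the normexp background. The median over the 19 with normexp was -0.090, where that over all miRNAs was -0.071. The difference between the upstream and the downstream genes was not tested. The arm that passed, miR-411-3p, had log2 levels of -3.02, -2.93 and -2.99 on IL-8 arrays and -3.42, -3.32 and -3.18 on control arrays, a fold of 1.25 (1.12 to 1.41, limma adjusted p = 0.0355). This call was lost in 11 of its 22 alternative values. miR-411-5p and miR-379-5p, with folds of 1.16 and 1.16, had a limma adjusted p of 0.0851 each. The change of miR-411-5p turned to -0.051 with the normexp background.

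**Figure D4:**
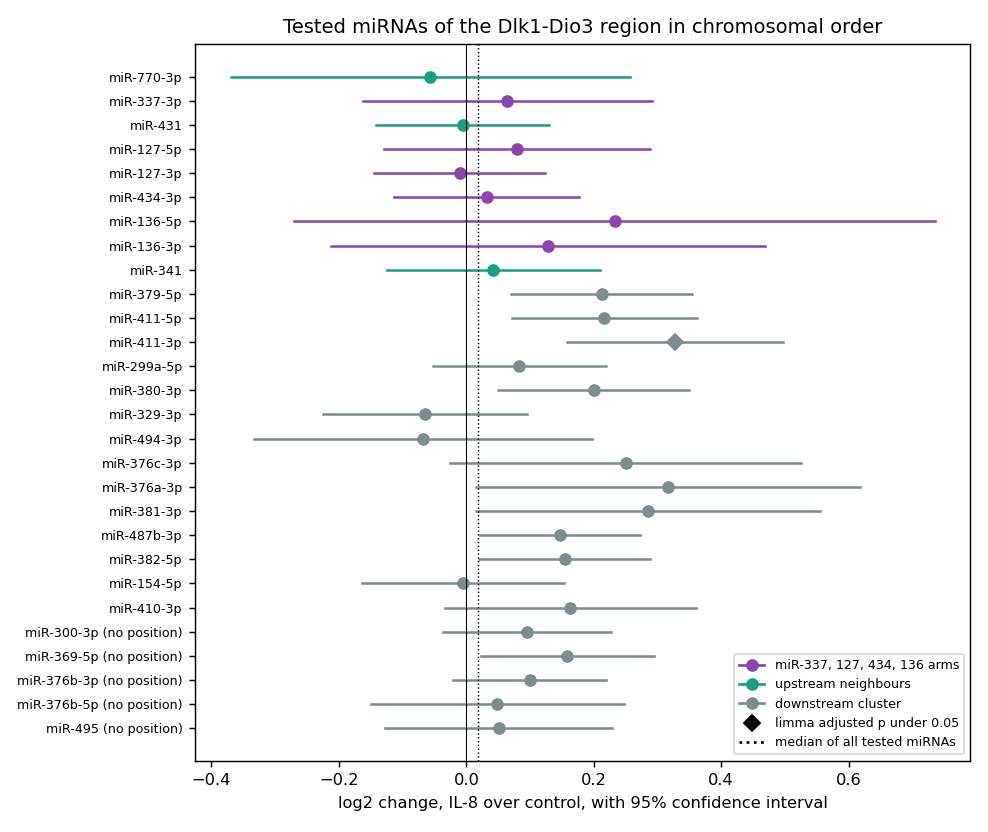
Log2 change of IL-8 over control with its 95% confidence interval (x axis) for the 28 tested miRNAs of the Dlk1-Dio3 region, from top to bottom in chromosomal order on rn4 (miR-431 and miR-341 by RefSeq order, and the 5 without a position at the end). Colours give the group, the diamond marks the 1 value with limma adjusted p under 0.05 and the dotted line is the median of all tested miRNAs, 0.019. The intervals are unadjusted, and those of all 6 arms of miR-337, miR-127, miR-434 and miR-136 include 0. Those of miR-379-5p, miR-411-5p and miR-411-3p do not, but these were named for the smallest p of the 19 downstream arms. Of those 19, 9 had an unadjusted limma p under 0.05.

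Scaling by a single factor per array shifted all arms together, which quantile normalization and the normexp background did not. Without scaling the median over all 167 miRNAs was 0.25, and with spike-in scaling it was 0.21. Without scaling the log2 change was 0.22 for miR-127-3p, 0.26 for miR-434-3p, 0.30 for miR-337-3p, 0.31 for miR-127-5p, 0.36 for miR-136-3p and 0.47 for miR-136-5p. Relative to the median over all miRNAs these were -0.029, 0.013, 0.046, 0.061, 0.11 and 0.21. The relative values with spike-in scaling are the same by construction, so they are no separate observation. No arm passed there either, with the smallest limma adjusted p of the 6 at 0.0549 without scaling and 0.0541 with spike-in scaling, while 52 and 51 of 167 miRNAs passed.

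**Figure D5:**
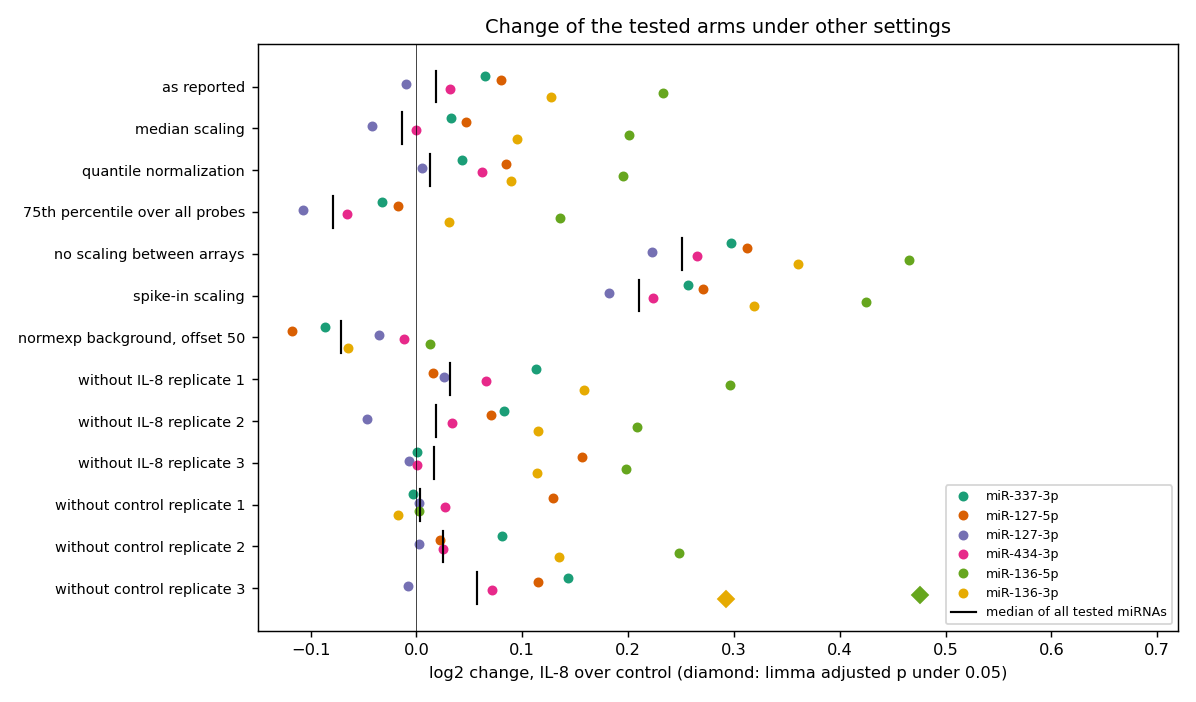
Log2 change of IL-8 over control (x axis) of the 6 tested arms under the reported setting and 12 others (rows), with the median over all tested miRNAs as a black tick and diamonds for limma adjusted p under 0.05. Between scalings by a single factor per array the arms keep their distance from the tick, but not with quantile normalization or the normexp background. The 2 diamonds, miR-136-5p at 0.48 and miR-136-3p at 0.29, appear without control replicate 3.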

How the data were processed

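miRNA was profiled in 6 samples (3 IL-8, 3 control), grouped by their titles. The deposited intensities were made by the authors with Agilent Feature Extraction 10.10.1.1, per the file headers, with background subtraction and spatial detrending and no normalization between arrays. The deposited values per sample match the scanner's total probe signal on all 15095 spots of each array (relative tolerance 0.0001). They are linear and not centred, with medians of 0.307, -0.802 and -1.18 (IL-8) and -0.529, -1.35 and -1.17 (control).

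Spots without outlier flags were averaged per probe, divided by the array's 75th percentile over 264 probes detected on all arrays, floored at a log2 level of -5.45 and log2-transformed. miRNAs with a probe detected on all 3 arrays of a group were tested with limma 3.58.1 in R 4.3.3, p-values adjusted by Benjamini-Hochberg at 0.05. The method was tested on simulated data, with noise drawn independently for each miRNA and no slide effect. That simulation cannot show how the p-values and intervals behave with noise shared between miRNAs or with a slide effect. Intervals of 95% leave out the error of the scaling itself.

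Named are the 8 arms, each tested upstream neighbour, the 3 downstream arms with the smallest p and the 5 miRNAs of most similar profile. The arms, lists and rules were chosen with earlier results of these data known. Same-numbered arrays correlated in their deviations from the group means at r = 0.242, 0.324 and 0.0787. For IL-8 and control arrays of different numbers r ran from -0.595 to 0.352. These values do not settle whether the numbers are pairs. The main test did not treat them as pairs, and results with the number as a block are given below.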

Additional observations from a re-analysis of the deposited data

How the results depend on the processing

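Of the 22 alternative values of each arm (20 for miR-127-5p), 16 values over 5 arms turned sign and none of these passed the limma threshold. With the percentile over all probes the log2 change was -0.033 for miR-337-3p, -0.018 for miR-127-5p, -0.065 for miR-434-3p, -0.055 for miR-341, -0.00049 for miR-101b-3p, -0.0086 for miR-27a-3p, -0.049 for miR-376b-5p, -0.090 for miR-21-5p and -0.015 for miR-29c-3p. With the normexp background it was -0.086 for miR-337-3p, -0.12 for miR-127-5p, -0.012 for miR-434-3p, -0.065 for miR-136-3p, -0.10 for miR-341, -0.051 for miR-411-5p, -0.078 for miR-101b-3p and -0.13 for miR-376b-5p. Without scaling and with spike-in scaling it was 0.22 and 0.18 for miR-127-3p, 0.18 and 0.14 for miR-770-3p and 0.23 and 0.19 for miR-431. It was -0.00029 for miR-434-3p and -0.025 for miR-21-5p with median scaling, 0.0049 for miR-127-3p and -0.014 for miR-376b-5p with quantile normalization, -0.021 for miR-341 with array weights and -0.0043 for the dimmer probe of miR-21-5p. The median of all miRNAs was -0.079 with the percentile over all probes, -0.071 with normexp, 0.25 without scaling and 0.21 with spike-ins, and the cause of the turned signs was not tested. The median over the upstream neighbours was 0.23 and 0.19 without scaling and with spike-ins, and that over the downstream cluster 0.38 and 0.35, -0.090 with normexp and 0 with no filter.

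Leaving out 1 array at a time gave -0.0031 to 0.14 for miR-337-3p, 0.015 to 0.16 for miR-127-5p, -0.046 to 0.026 for miR-127-3p, 0.00035 to 0.072 for miR-434-3p, 0.0023 to 0.48 for miR-136-5p and -0.017 to 0.29 for miR-136-3p. The ranges were -0.0024 to 0.15 for miR-341, -0.18 to 0.076 for miR-770-3p, -0.039 to 0.033 for miR-431, -0.014 to 0.13 for miR-376b-5p and -0.070 to 0.098 for miR-21-5p. The count over all miRNAs was 12 (6 higher, 6 lower), and 1 (without IL-8 replicate 2) to 33 (without control replicate 3) with an array left out. By limma it was 0 with the percentile over all probes and 0 with no filter (9 and 38 at unadjusted p under 0.05), 52 (52 higher) without scaling, 51 (49 higher, 2 lower) with spike-ins, 24 (1 higher, 23 lower) with normexp, 20 (11 higher, 9 lower) over 300 probes tested alone and 28 (18 higher, 10 lower) with array weights, whose estimation stopped before its tolerance. With the replicate number as a block it was 3 (0 higher, 3 lower), and no arm of the 4 genes passed (smallest limma adjusted p = 0.378). Limits are the signals of miR-337-5p, miR-434-5p and miR-127-5p near or under the detection limit, the 3 arrays per group and the slide, which cannot be told apart from IL-8.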

Other observations

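Other relations between probe composition and the arrays were computed over the 167 tested miRNAs, as descriptions. The log2 level on IL-8 replicate 3 minus that on IL-8 replicate 1 correlated with the G and C share at Pearson's r = -0.280. For the log2 change of IL-8 over control r was -0.246, for the standard deviation over control arrays -0.142 and over IL-8 arrays 0.281. Probe length gave r = 0.436 with the difference between those 2 IL-8 arrays and 0.228 with the change of IL-8 over control. With the standard deviation over control arrays it gave 0.085, and with that over IL-8 arrays -0.401. In all 10 relations were computed, all after the values had been seen, and the miRNAs share arrays and scaling.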
